A study of Mus musculus with 6 samples.

Results

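The mRNA levels of 7 genes that start or carry out apoptosis were followed in mouse embryoid bodies, grown from induced pluripotent stem cells (iPSCs), with and without intermittent compressive force (ICF). The genes were the death receptor genes Fas and Tnfrsf10b, the initiator caspase genes Casp8 and Casp9, the scaffold genes Apaf1 and Pidd1, and the p53 target Perp. They were given as a list of symbols and matched to Ensembl identifiers, and are 7 of the 50686 genes in the count files. All 7 passed the filter on low counts, which left 16729 genes for the tests.

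Programmed cell death by apoptosis can start at the cell surface or at mitochondria. Death receptors such as Fas and the TRAIL receptor, when bound by ligand, recruit the adaptor FADD and activate caspase-8. Cytochrome c released from mitochondria makes APAF1 assemble into the apoptosome, which activates caspase-9, and both routes converge on further proteases that cut cellular proteins. PIDD1 with the adaptor CRADD forms the PIDDosome, which activates caspase-2. The tumour suppressor p53 is known to induce several of these genes, among them Fas, Tnfrsf10b, Apaf1, Pidd1 and Perp.

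The iPSCs came from mouse gingival fibroblasts, were grown on SNL feeder cells that were removed by selective trypsinization, and were treated with retinoic acid as embryoid bodies before plating. Attached constructs of 3 ICF samples received 1.5 g/cm2 at 0.23 Hz for 24 h in serum-free medium, and 3 control samples were kept unloaded for the same 24 h. The labels number the samples as donors 1 to 3, and the methods describe independent experiments, 3 in number. How the donors relate to the cell line and to those experiments was not given in the sources used here, and p-values measure the spread between these samples. RNA sequencing gave 28711166 to 34194413 reads on genes per library. One library stood apart: multiples of 4 made up 89.0% of the nonzero counts of ICF replicate 3, against 20.3% to 21.5% in the other 5 libraries, and 20802 genes had a count, against 24340 to 24889. For the 7 genes and for the listed genes that passed, values without that library are given as well.

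Genes of the pluripotent state were strongly expressed, with Pou5f1 at 741 to 883 CPM (counts scaled to each library's reads on genes, with TMM normalization) in the 6 samples, and none of the 6 pluripotency markers passed the test. The summed level of 7 mesenchymal markers was 357 to 410.2 CPM in control and 423 to 437 CPM in ICF samples, and Col1a1 rose. Sox17 fell among 5 endoderm markers, whose summed level was 353 to 371 CPM in control and 347 to 387 CPM in ICF samples. Epcam fell among 5 epithelial markers, whose summed level was 876 to 888 CPM and 806 to 868 CPM, respectively. None of the 5 neural markers (122 to 131 and 118 to 128 CPM), the 4 endothelial markers (69.1 to 85.5 and 73.5 to 108 CPM) or the 3 tested of 6 immune markers (20.7 to 22.3 and 18.5 to 27.6 CPM) passed. The immune markers Ptprc, Lyz2, Adgre1 and Cd14 had 1 to 8, 0 to 9, 0 to 1 and 11 to 27 counts. Cd68 had 468 to 636 counts and Csf1r 77 to 148. The part of these cell type markers in the results below was not tested, and in bulk RNA fewer cells of a type and less RNA per cell cannot be told apart.

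Of the 7 genes, 3 rose with ICF: Pidd1 by 1.64-fold, Tnfrsf10b by 1.54-fold and Perp by 1.48-fold (edgeR, adjusted p under 0.05). In all 16729 genes, 3.47% rose and 4.38% fell. None of the 7 fell in this test, with 1 of them (Casp9) lower at an unadjusted p under 0.05, and DESeq2 called 4 higher (also Apaf1) and 0 lower. With the donor number as a replicate block, 4 rose (also Apaf1) and 2 fell (Casp8 and Casp9), where 14.6% of all genes rose and 15.3% fell. Every ICF sample lay above every control sample for 4 genes (Tnfrsf10b, Pidd1, Apaf1 and Perp) and below for 1 (Casp9), which was the case for 15.6% and 15.7% of all genes. The median log2 fold change of the 7 genes was 0.35, against 0.0 over all genes tested. That median is the value of Fas, which averaged 19.7 counts and was not called (edgeR adjusted p = 0.68). The 7 genes were also chosen with earlier results of these data known. Apaf1, Pidd1 and Perp belong to the genes the study displayed from these same samples for p53 signaling, so their counts are not independent evidence of a direction.

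**Figure D1:**
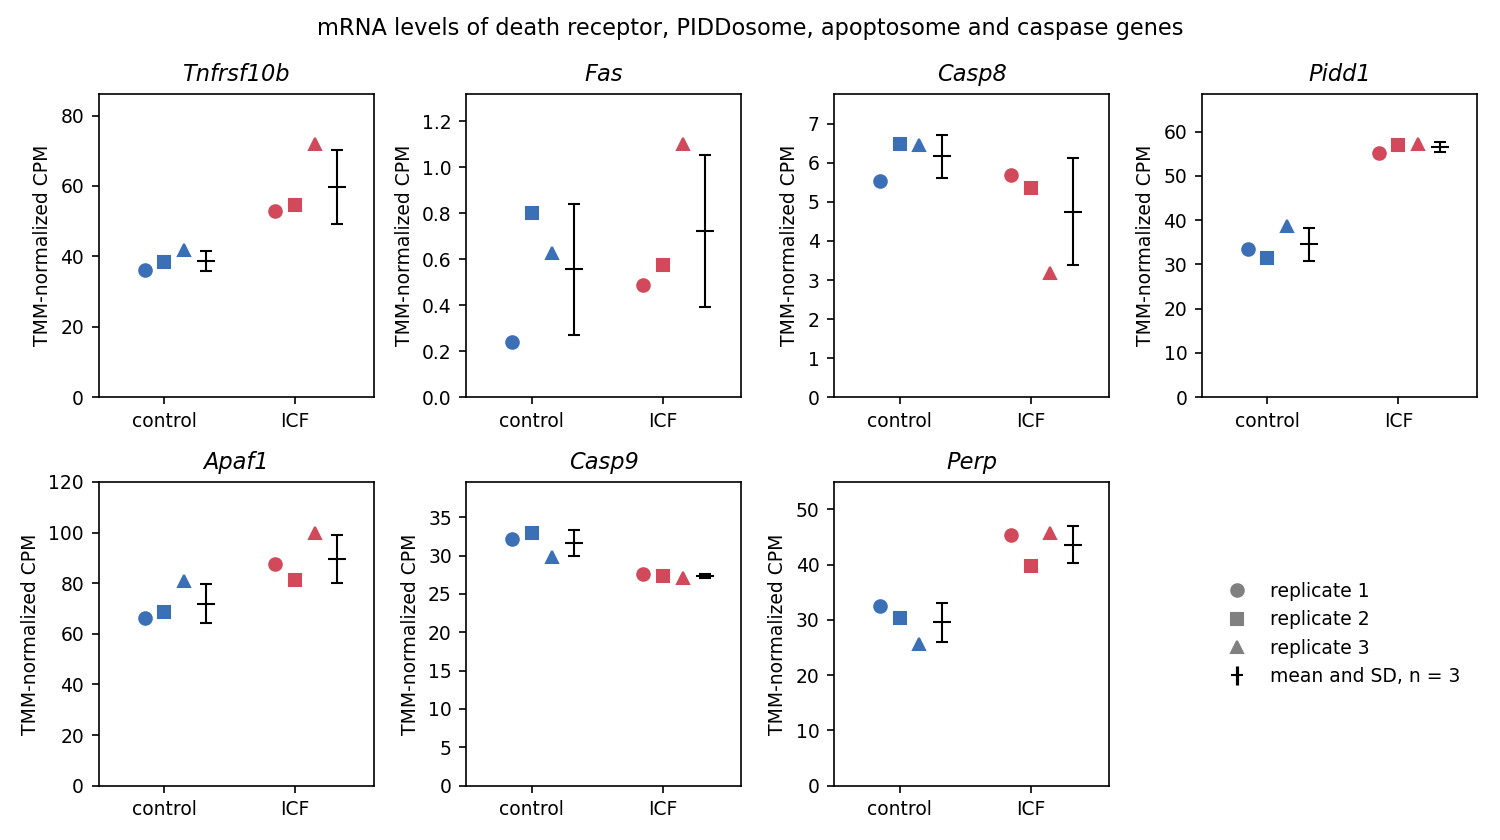
TMM-normalized CPM (y axis) of each of the 7 genes in the control and ICF samples, with a marker shape for each replicate number and, beside the points, the mean with its SD (n = 3). Pidd1, Tnfrsf10b and Perp separate the groups by a clear gap, and Casp9 is lower in every ICF sample. In Tnfrsf10b, Fas and Casp8 the ICF replicate 3 lies away from the other 2 ICF samples.

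Tnfrsf10b encodes the mouse TRAIL death receptor (ENSMUSG00000022074, chr14:69767472-69784411, plus strand; coordinates here and below are of GRCm38). Its level was 36.0, 38.4 and 41.7 CPM in control replicates 1 to 3 and 52.8, 54.6 and 71.9 CPM in ICF replicates 1 to 3. The groups did not overlap, and ICF replicate 3 was the highest sample. The mean was 38.7 ± 2.89 CPM in control and 59.8 ± 10.6 CPM in ICF samples (SD, n = 3). The log2 fold change was 0.63 (SE 0.15, 95% interval 0.35 to 0.90, edgeR adjusted p = 0.018). Without ICF replicate 3 it was 0.48 with an adjusted p of 0.0089 by edgeR. The call was lost without control replicate 1 (0.58, adjusted p = 0.093) and without control replicate 2 (0.62, adjusted p = 0.095). In the same-numbered pairs the log2 ratios were 0.55, 0.51 and 0.79. Of the 75-base stretches of its longest transcript, 4.2% also occur in other genes, most often in Gm15574. HTSeq leaves out reads that map to several places, so such reads may be missing from its count.

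Fas encodes the receptor of Fas ligand (ENSMUSG00000024778, chr19:34290666-34327772, plus strand) and was at the edge of detection. Its counts were 7, 25 and 18 in control and 17, 19 and 32 in ICF replicates 1 to 3. The groups overlapped, and the ICF samples 1 and 2 lay inside the control range. The mean was 0.555 ± 0.286 CPM in control and 0.723 ± 0.333 CPM in ICF samples (SD, n = 3), a log2 difference of 0.35 (95% interval -0.71 to 1.42, edgeR adjusted p = 0.68). Without ICF replicate 3 the difference was -0.06 on the log2 scale. The interval includes changes of either sign, and bounds them at its ends.

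Casp8 encodes the initiator caspase that death receptors activate (ENSMUSG00000026029, chr1:58795374-58847503, plus strand). Its level was 5.54, 6.48 and 6.47 CPM in control and 5.70, 5.36 and 3.18 CPM in ICF replicates 1 to 3. The groups overlapped, and ICF replicate 3, with 92 counts, was the lowest sample. The mean was 6.17 ± 0.539 CPM in control and 4.74 ± 1.37 CPM in ICF samples (SD, n = 3). The log2 difference was -0.37 (SE 0.27, 95% interval -0.85 to 0.11, edgeR adjusted p = 0.31). With the replicate block it was -0.39 with an edgeR adjusted p of 0.049, and with the block in DESeq2 the adjusted p was 0.23. The difference was -0.15 without ICF replicate 3 (edgeR adjusted p = 0.52), and -0.12 with the block and without replicate 3 of both groups (adjusted p = 0.56). The groups' difference thus passed the threshold only where the library with counts in steps of 4 was included.

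Pidd1 encodes the death domain scaffold of the PIDDosome (ENSMUSG00000025507, chr7:141438113-141444025, minus strand). Its level was 33.5, 31.5 and 38.6 CPM in control and 55.2, 57.1 and 57.2 CPM in ICF replicates 1 to 3. The ICF samples lay close together and far above the control samples. The mean was 34.5 ± 3.67 CPM in control and 56.5 ± 1.08 CPM in ICF samples (SD, n = 3). The log2 fold change was 0.71 (SE 0.09, 95% interval 0.52 to 0.90, edgeR adjusted p = 0.0023). It was 0.71 without ICF replicate 3, and the gene passed the test whichever of the 6 samples was left out.

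Apaf1 encodes the scaffold of the apoptosome (ENSMUSG00000019979, chr10:90989311-91082770, minus strand). Its level was 66.4, 68.8 and 80.7 CPM in control and 87.5, 81.2 and 100 CPM in ICF replicates 1 to 3. The groups did not overlap, but control replicate 3 nearly reached ICF replicate 2. The mean was 72.0 ± 7.65 CPM in control and 89.6 ± 9.54 CPM in ICF samples (SD, n = 3). The log2 difference was 0.32 (SE 0.12, 95% interval 0.09 to 0.54) and missed the threshold in edgeR (adjusted p = 0.087). Its log2 ratios in the same-numbered pairs were 0.40, 0.24 and 0.31, and with the replicate block the edgeR adjusted p was 3e-05. It passed in DESeq2 (adjusted p = 0.036). Without ICF replicate 3 the difference was 0.24 (edgeR adjusted p = 0.14). Without replicate 3 of both groups it was 0.32 (edgeR adjusted p = 0.00024). With 1 sample left out at a time and no block, it passed in 1 of 6 fits, the one without control replicate 3 (0.40, adjusted p = 0.034), and adjusted p ran from 0.034 to 0.28.

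Casp9 encodes the caspase that the apoptosome activates (ENSMUSG00000028914, chr4:141793612-141815976, plus strand). Its level was 32.2, 33.0 and 29.8 CPM in control and 27.6, 27.4 and 27.1 CPM in ICF replicates 1 to 3. All 3 ICF samples lay below the control samples and close together. The mean was 31.7 ± 1.65 CPM in control and 27.4 ± 0.258 CPM in ICF samples (SD, n = 3). The log2 difference was -0.21 (SE 0.04, 95% interval -0.37 to -0.05) and missed the threshold in edgeR (adjusted p = 0.11). With the replicate block the edgeR adjusted p was 0.02, and without replicate 3 of both groups the difference was -0.25 (adjusted p = 0.0068). Without ICF replicate 3 alone it was -0.20 (edgeR adjusted p = 0.15), and with 1 sample left out at a time it passed in 0 of 6 fits (adjusted p 0.067 to 0.35). In DESeq2 it missed the threshold without and with the block (adjusted p = 0.11 and 0.094). Of its exon bases, 1.8% overlap genes on the opposite strand.

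Perp encodes a tetraspan membrane protein of desmosomes that p53 induces during apoptosis (ENSMUSG00000019851, chr10:18845020-18857073, plus strand). Its level was 32.5, 30.4 and 25.7 CPM in control and 45.4, 39.7 and 45.8 CPM in ICF replicates 1 to 3. The groups did not overlap. The mean was 29.5 ± 3.48 CPM in control and 43.6 ± 3.43 CPM in ICF samples (SD, n = 3). The log2 fold change was 0.56 (SE 0.12, 95% interval 0.33 to 0.80, edgeR adjusted p = 0.014), and 0.53 without ICF replicate 3 (adjusted p = 0.019). The call was lost without control replicate 2 (0.58, adjusted p = 0.071) and without ICF replicate 1 (0.54, adjusted p = 0.062).

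Per kb of exon, Perp had the highest level of the 7 mRNAs in control samples, with a mean of 15.1 CPM per kb. Apaf1 (range 7.36 to 8.94 CPM per kb), Pidd1 (6.95 to 8.52) and Tnfrsf10b (6.60 to 7.65) followed with overlapping ranges. Casp9 lay below them at 5.74 to 6.34 CPM per kb. Casp8, at a mean of 2.13 CPM per kb, and Fas, at 0.269, were the least abundant. In ICF samples Pidd1 (12.2 to 12.6 CPM per kb) lay above Apaf1 (9.0 to 11.1), and the range of Tnfrsf10b (9.69 to 13.2) overlapped both. The order of Perp, Casp9, Casp8 and Fas was as in control samples. Exon length here merges the exons of all annotated transcripts of a gene, and can exceed the length of any single transcript. Tnfrsf10b had 5451 such bases and 3105 stretches of 75 bases in its longest transcript, against 1952 and 1878 for Perp. The order of the genes thus depends on this choice of length.

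The promoters of Pidd1, Apaf1 and Casp9 are shown because these genes encode the scaffolds of both activating complexes and the caspase of one of them, and their log2 differences had opposite signs. Each window runs from 250 bases before to 50 bases after the start in RefSeq (GRCm38.p6), 5′ to 3′ on the gene's strand, at chr7:141443976-141444275 (minus), chr10:91082694-91082993 (minus) and chr4:141793362-141793661 (plus). Capitals mark GC boxes, the letters GGGCGG or their reverse complement CCGCCC.
Pidd1: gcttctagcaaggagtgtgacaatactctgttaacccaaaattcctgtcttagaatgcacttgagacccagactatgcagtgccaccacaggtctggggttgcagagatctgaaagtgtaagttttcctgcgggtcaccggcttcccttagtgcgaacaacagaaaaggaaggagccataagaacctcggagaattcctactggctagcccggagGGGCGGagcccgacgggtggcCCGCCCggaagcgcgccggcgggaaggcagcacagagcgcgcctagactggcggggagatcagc
Apaf1: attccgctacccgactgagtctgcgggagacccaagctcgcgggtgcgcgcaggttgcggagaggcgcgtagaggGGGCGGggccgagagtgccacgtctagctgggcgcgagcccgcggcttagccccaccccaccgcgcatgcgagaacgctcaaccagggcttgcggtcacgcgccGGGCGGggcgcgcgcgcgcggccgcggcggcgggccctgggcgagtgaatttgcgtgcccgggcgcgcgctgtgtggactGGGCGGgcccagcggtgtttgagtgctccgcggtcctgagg
Casp9: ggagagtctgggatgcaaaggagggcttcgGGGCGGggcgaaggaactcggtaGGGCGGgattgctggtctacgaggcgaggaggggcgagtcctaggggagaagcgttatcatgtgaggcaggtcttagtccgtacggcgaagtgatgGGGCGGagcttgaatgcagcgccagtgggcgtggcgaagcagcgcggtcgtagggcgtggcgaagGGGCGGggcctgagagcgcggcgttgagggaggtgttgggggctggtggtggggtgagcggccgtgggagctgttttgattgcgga
Windows were found for 5 of the 7 genes, and not for Tnfrsf10b and Perp. Of the genes that rose, only Pidd1 was therefore searched. GC boxes numbered 2 in Pidd1, 3 in Apaf1, 4 in Casp9, 2 in Fas and 0 in Casp8, and 35.7% of all 32851 promoter windows held at least 1. A GC box count of 3 or more, as in Apaf1 and Casp9, was found in 10.7% of all windows. The 10-letter p53 half-site was searched on both strands and matched in 0 of the 5 windows, against 8.4% of all windows. The Casp8 window lies downstream of the gene's annotated start. A match or its absence describes these letters in this window only.

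Ratios within a library compare partner genes without the scaling between libraries, and the 4 ratios were chosen after the values were seen. The level of a ratio depends on the exon lengths used, and its log2 difference between groups does not. The ratio of Pidd1 to Casp2, the caspase of the PIDDosome, was 1.90, 1.98 and 2.02 per kb of exon in control and 3.24, 3.21 and 3.23 in ICF replicates 1 to 3. This was a log2 difference of 0.72 (SE 0.03), with and without ICF replicate 3. The ratio of Apaf1 to Casp9 was 1.19, 1.2 and 1.56 in control and 1.83, 1.70 and 2.13 in ICF samples. Its log2 difference was 0.53 (SE 0.16), and 0.44 without ICF replicate 3. The ICF samples lay above the control samples in both ratios. The ratio of Tnfrsf10b to Casp8 was 3.44, 3.14 and 3.42 in control and 4.92, 5.41 and 12.0 in ICF samples. Its log2 difference was 1.04 (SE 0.41), and 0.63 without ICF replicate 3. The ratio of Pidd1 to the adaptor Cradd was 2.95, 2.85 and 3.86 in control and 5.27, 5.54 and 10.4 in ICF samples. Its log2 difference was 1.07 (SE 0.35), and 0.76 without ICF replicate 3. In each of the 4 ratios the exact two-sided permutation p was 0.1, the smallest that 3 samples against 3 allow, and 0.1 after adjustment over the 4. Because the ratios were picked after the values of their genes were seen, this p only restates that the groups separate. Of the partners, Casp2, Casp8 and Cradd were not called by themselves (edgeR adjusted p = 0.99, 0.31 and 0.44). The log2 fold change of Pidd1 alone was 0.71.

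**Figure D2:**
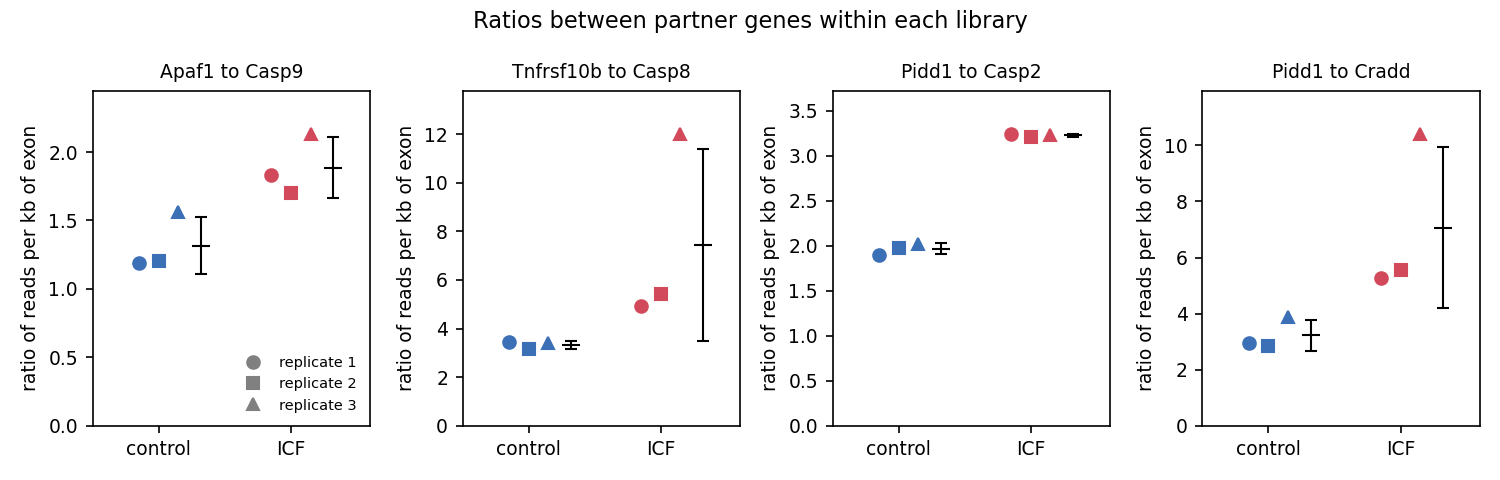
Ratios of reads per kb of exon (y axis) between partner genes in each library, with a marker shape for each replicate number and the mean with its SD (n = 3). All 3 ICF samples lie above the control samples in each ratio, and ICF replicate 3 reaches 12.0 for Tnfrsf10b to Casp8 and 10.4 for Pidd1 to Cradd.

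Beside the 7 genes, 9 lists of cell death genes held 73 genes with values given here, of which 62 were tested and 11, with at most 12 counts in any sample, were not. Of these 62, 2 rose (Eda2r and Dffa; 3.23%) and 5 fell (Tnfsf12, Ripk3, Emp1, Emp2 and Pkp2; 8.06%), where 3.47% and 4.38% of all genes did, with a median log2 fold change of 0.06. With the replicate block 11 rose (17.7%) and 9 fell (14.5%), where 14.6% and 15.3% of all genes did.

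**Figure D3:**
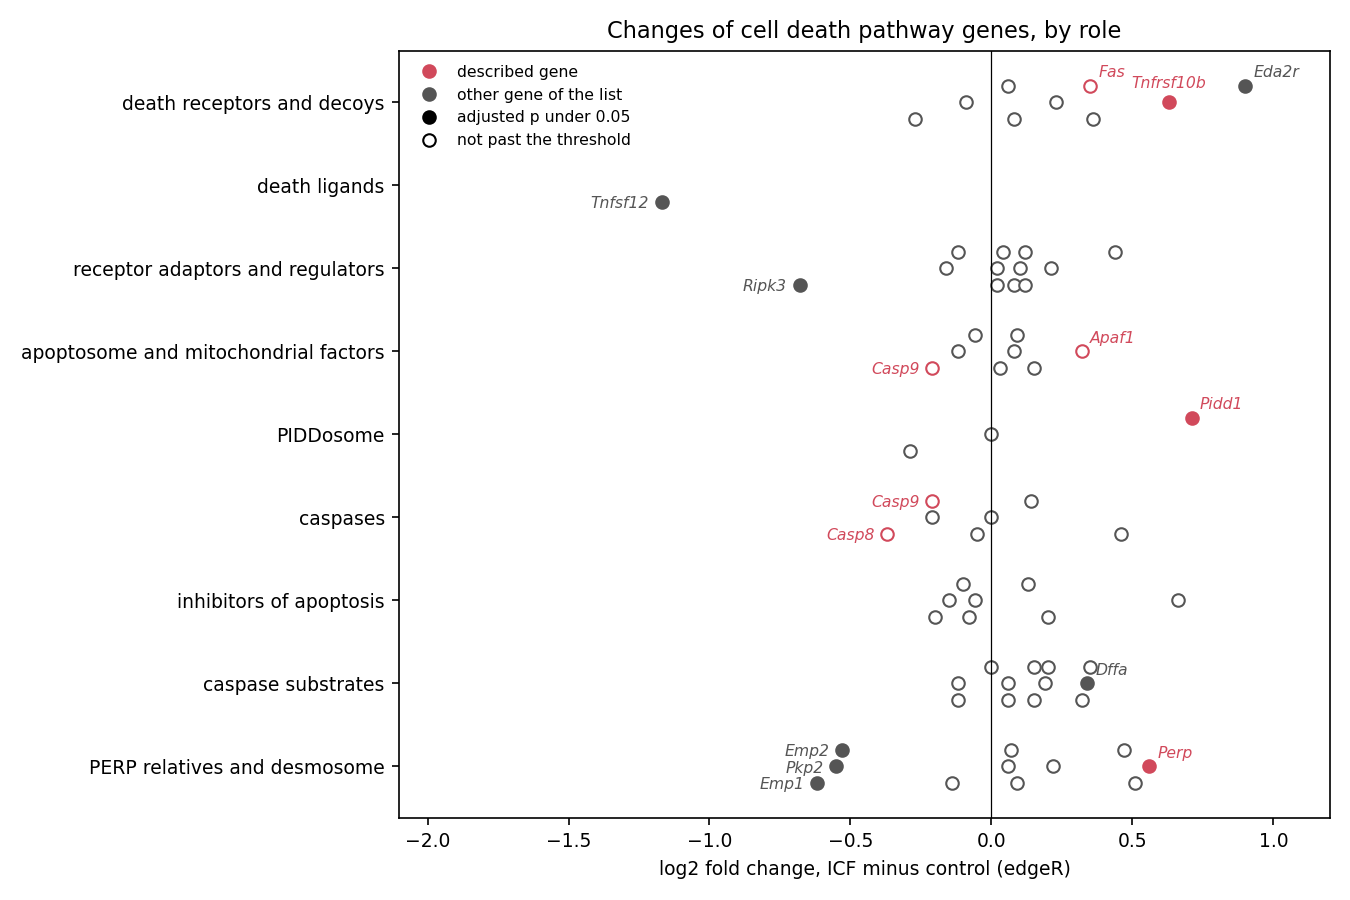
Log2 fold change of ICF against control (x axis) of tested genes in the 9 lists (y axis), with the 7 genes in red, the other genes in grey, and filled points for an adjusted p under 0.05 in edgeR. Most points lie near 0, Eda2r and Pidd1 lie far to the right, and Tnfsf12 and Ripk3 lie far to the left.

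Among 7 other death receptors and decoys tested, Eda2r rose, a receptor of the ectodysplasin A2 ligand that p53 induces. Its level was 30.6, 32.4 and 38.7 CPM in control and 55.8, 56.4 and 77.9 CPM in ICF replicates 1 to 3, with ICF replicate 3 again highest. The log2 fold change was 0.90 (SE 0.19, edgeR adjusted p = 0.0081). Its call was lost without control replicate 2 (0.87, adjusted p = 0.055). Its log2 fold change without ICF replicate 3 was 0.73 (adjusted p = 0.0038). Tnfrsf21 fell with the block in edgeR and in DESeq2 (adjusted p = 0.0023 and 0.017). Tnfrsf1a, the TNF receptor, passed with the block in edgeR (0.23, adjusted p = 0.025) and missed with it in DESeq2 (adjusted p = 0.15).

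Of 6 death ligand genes, Fasl, Tnfsf10 (TRAIL), Tnf, Lta and Tnfsf15 had at most 6 counts in any sample and were not tested. The remaining ligand gene, Tnfsf12, which encodes TWEAK, fell from 13.1 ± 2.72 to 5.79 ± 1.30 CPM (SD, n = 3). On the log2 scale this was a change of -1.17 (SE 0.27, edgeR adjusted p = 0.012). Its call was lost without control replicate 1 (-1.02, adjusted p = 0.06) and without control replicate 2 (-1.17, adjusted p = 0.062), and was kept without ICF replicate 3 (-0.99, adjusted p = 0.012). Its value is uncertain, because 48.3% of its exon bases are shared with the read-through gene Tnfsfm13 on the same strand.

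Among 12 receptor adaptors and regulators, Ripk3, a kinase of necroptosis, fell and none rose, with 2 higher at an unadjusted p under 0.05 and 1 called higher by DESeq2. Ripk3 was at 17.2, 16.4 and 16.8 CPM in control and 10.5, 11.3 and 9.53 CPM in ICF replicates 1 to 3. The ICF samples were all lower, with a log2 fold change of -0.68 (SE 0.08, edgeR adjusted p = 0.0054), and the call held whichever sample was left out, with -0.61 without ICF replicate 3. The log2 difference of Ripk1, its partner kinase, was 0.44 (edgeR adjusted p = 0.055), and Ripk1 rose with the block in edgeR and in DESeq2 (adjusted p = 0.00041 and 0.013). The deubiquitinase gene Cyld passed with the block in edgeR (0.21, adjusted p = 0.036) and missed with it in DESeq2 (adjusted p = 0.19). Fadd, the adaptor of caspase-8, differed by 0.12 and Cflar, which encodes its inhibitor c-FLIP, by -0.12 on the log2 scale (edgeR adjusted p = 0.54 for both).

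Of 6 other apoptosome and mitochondrial factors none was called, at an unadjusted p under 0.05 none either, and DESeq2 called 0. Their log2 differences ran from -0.12 to 0.15. Of the 75-base stretches, 66.4% in Diablo, 40.5% in Htra2, 31.1% in Endog and 26.1% in Cycs also occur in other genes, on either strand. Reads from such stretches may be missing from their counts, so the values of these genes are uncertain. In Aifm1 and Sept4 the share was 0.0%. Of the PIDDosome partners, Casp2 differed by 0.00 (95% interval -0.20 to 0.19, edgeR adjusted p = 0.99) and Cradd by -0.29 (adjusted p = 0.44). Cradd was at 11 and 10.8 CPM in ICF replicates 1 and 2 and at 5.76 CPM in ICF replicate 3, and it passed with the block in edgeR (-0.32, adjusted p = 0.032) but not with it in DESeq2 (adjusted p = 0.16).

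Of the caspase genes, Casp6 differed by -0.21 on the log2 scale (edgeR adjusted p = 0.17). It passed with the block in edgeR (adjusted p = 0.045) and missed in DESeq2 without and with the block (adjusted p = 0.19 and 0.20). Casp2, Casp4, Casp12 and Casp8ap2, which is in the same list but is not a caspase gene, were not called by edgeR without or with the block. DESeq2 without the block did not call them either. Casp4 and Casp12 averaged 26.0 and 24.2 counts, so little can be read from their results.

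None of 8 inhibitor of apoptosis genes was called by edgeR or DESeq2, with 1 lower at an unadjusted p under 0.05. Xiap, the direct inhibitor of caspases, differed by -0.06 on the log2 scale (edgeR adjusted p = 0.75). Birc2 fell with the block in edgeR and in DESeq2 (adjusted p = 0.0077 and 0.03). Birc6 passed with the block in edgeR (0.14, adjusted p = 0.045) and missed with it in DESeq2 (adjusted p = 0.11). Among 12 caspase substrates, Dffa rose from 25.3 ± 1.24 to 32.1 ± 0.32 CPM (SD, n = 3). Dffa encodes the inhibitor that holds the DNA-cutting enzyme of apoptosis until caspases cleave it. Its log2 fold change was 0.34 (SE 0.04, edgeR adjusted p = 0.024). The call was lost without control replicate 1 (0.32, adjusted p = 0.12), control replicate 2 (0.33, adjusted p = 0.13), ICF replicate 1 (0.34, adjusted p = 0.097) and ICF replicate 2 (0.36, adjusted p = 0.072). It passed without ICF replicate 3 (0.34, adjusted p = 0.029). Rock1 and Acin1 rose with the block in edgeR (adjusted p = 0.01 and 0.02) and in DESeq2 (adjusted p = 0.044 and 0.017). Dffb passed with the block in edgeR (0.35, adjusted p = 0.0036) and missed with it in DESeq2 (adjusted p = 0.057). Parp1 was lower with the block in DESeq2 (adjusted p = 0.025) and missed with it in edgeR (-0.12, adjusted p = 0.055).

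Among 10 relatives of PERP and desmosome genes, 3 fell while Perp itself rose. Emp1 and Emp2, which encode tetraspan proteins of the PMP22 family, fell from 40.9 ± 3.28 to 26.6 ± 2.32 CPM and from 25.3 ± 2.00 to 17.4 ± 2.20 CPM (SD, n = 3). Pkp2, a desmosomal plaque gene, fell from 55.2 ± 2.74 to 37.8 ± 3.23 CPM. Their log2 fold changes were -0.62, -0.53 and -0.55 (edgeR adjusted p = 0.0062, 0.023 and 0.0061). The calls of Emp1 and Pkp2 held whichever sample was left out. That of Emp2 was lost without control replicate 1 (-0.50, adjusted p = 0.11), control replicate 2 (-0.51, adjusted p = 0.12) and ICF replicate 2 (-0.49, adjusted p = 0.083). Without ICF replicate 3 the log2 fold changes of Emp1, Emp2 and Pkp2 were -0.60, -0.47 and -0.61, and all 3 passed (edgeR). None rose, with 1 higher at an unadjusted p under 0.05 and 0 called higher by DESeq2, and with the block Dsp and Dsc2 rose in edgeR and in DESeq2.

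Over the alternatives, Pidd1 passed in each setting, and Tnfrsf10b and Perp in all but the losses named above. Casp8 passed only with the edgeR block of all 6 samples.

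**Figure D4:**
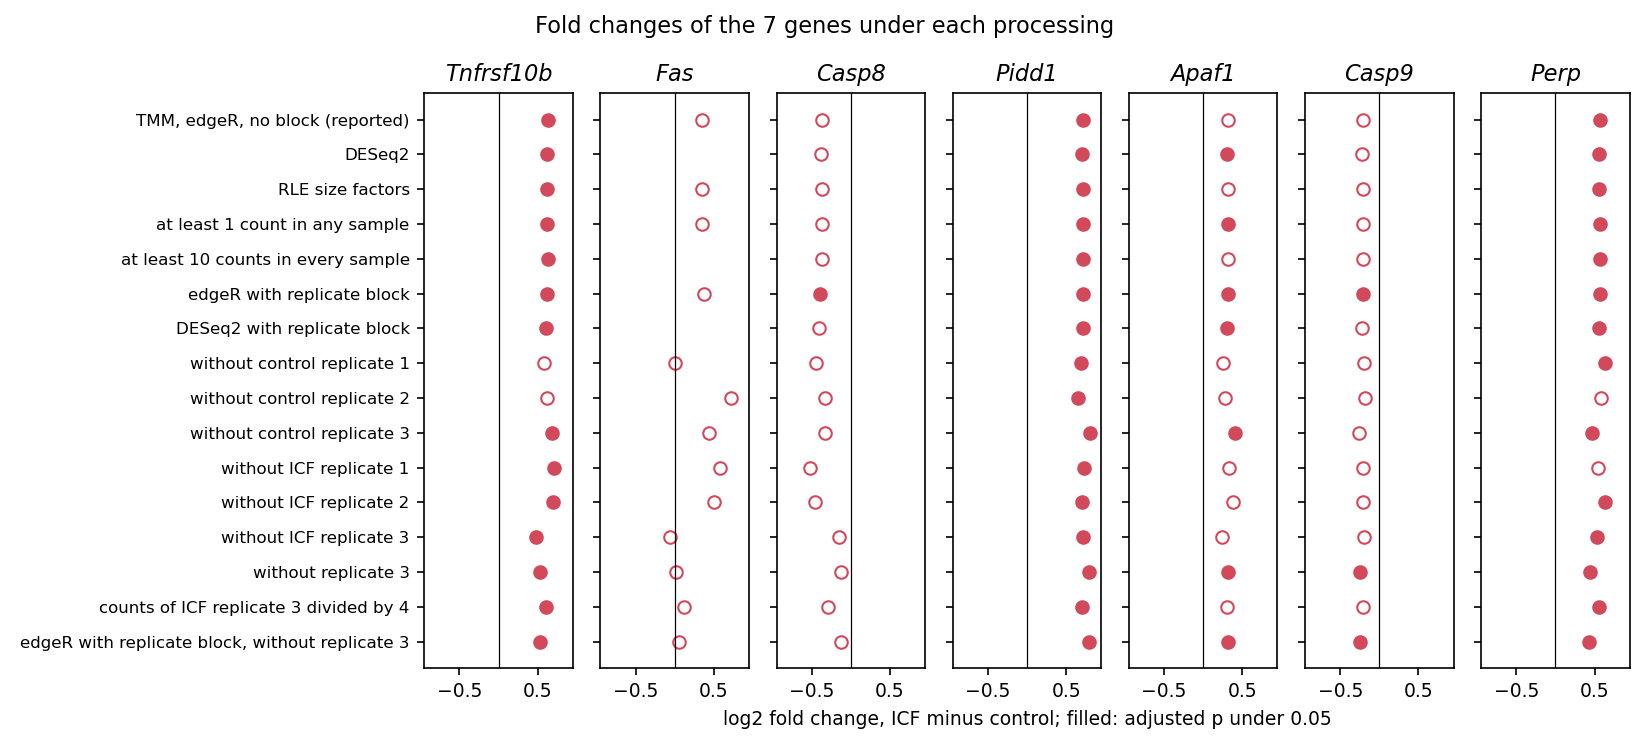
Log2 fold change of ICF against control (x axis) of the 7 genes under the reported settings and 15 alternatives (y axis), with filled points for an adjusted p under 0.05. Pidd1 is filled in each setting, the open points of Casp8 move toward 0 where replicate 3 is left out, and Fas scatters from -0.06 to 0.72 among the samples left out.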

How the data were processed

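RNA sequencing measured 3 ICF and 3 control samples. The authors deposited raw counts of reads per gene for each sample, without normalization. Their processing notes name FastQC, Trimmomatic, bcl2fastq 2.19, HISAT2, HTSeq and DESeq2, and list the builds GRCm38 and hg38 with no role. HTSeq's strand setting is not given in the sources used here. HTSeq leaves out reads that map to several places, so genes with near copies can be undercounted. Reads not assigned to a gene, 38.1% to 40.3% per library, were left out of library sizes and tests.

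Gene names and positions came from GENCODE M21 (GRCm38), which held 50462 of 50686 identifiers. edgeR 4.0.16 in R 4.3.3 (TMM, filterByExpr, glmQLFit, glmQLFTest) tested 16729 genes, with Benjamini-Hochberg adjustment over all of them and a threshold of 0.05, after a test of the script on simulated data. SEs combine both groups' SD of log2 CPM, and intervals are those of the edgeR fit. The 7 genes and the lists were chosen with earlier results of these data known. Named genes are the 7, from each list up to 3 of the largest rises and 3 of the largest falls past the threshold, and for each of the 7 that passed, the 2 other genes, averaging 100 counts or more, whose centred log2 CPM is nearest. The lists leave out 2 of their genes, which are not reported here, so counts over the lists do not cover them. Other genes in the text were named after their values were seen.

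Alternatives were DESeq2 1.42.0, RLE size factors, other filters on low counts, a replicate block in both tools, each sample or replicate 3 of both groups left out, and counts of ICF replicate 3 divided by 4. The block without replicate 3 was chosen after seeing the data. The block pairs samples by the donor numbers in the labels. Deviations from the group means correlated at 0.36, 0.36 and 0.66 in same-numbered pairs over 11925 genes, and at -0.58 to 0.55 in other pairs. Control replicate 1 with ICF replicate 2 (0.55) and control replicate 2 with ICF replicate 1 (0.40) exceeded the same-numbered 0.36. These correlations set replicate 3 apart, but do not show that replicates 1 and 2 are paired by number.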

Additional observations from a re-analysis of the deposited data

How the results depend on the processing

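With 15 alternatives, the 20 named genes gave 253 results on the same side of the threshold and in the same direction, 11 that gained and 32 that lost the call, and 1 that reversed: Fas, at -0.063 (log2) without ICF replicate 3, in a range of -0.063 to 0.721 over the samples left out. With the replicate block of donor numbers, edgeR called 2445 genes higher and 2561 lower over all genes, 2 of the 7 lower, and 11 higher and 9 lower in the lists. Among the 7 genes the block in edgeR changed the calls of Apaf1, Casp8 and Casp9 and no other. DESeq2 with the block gave 1354 and 1666 over all genes and 7 and 8 in the lists, and DESeq2 alone 877 higher over all genes. Without replicate 3 of both groups the counts were 2466 and 2627 over all genes, 1 of the 7 lower, and 12 and 9 in the lists. With the block as well they were 2162 and 2359, 1, and 11 and 9. A filter of at least 1 count in any sample gave 4 higher in the lists. Leaving out 1 sample at a time gave 85 to 724 genes higher and 215 to 928 lower over all genes, 1 to 4 higher and 0 lower of the 7, and 0 to 5 higher and 3 to 6 lower in the lists. Without control replicates 1 and 2 and ICF replicates 1 and 2, respectively, 109, 85, 181 and 232 genes were higher and 251, 215, 290 and 349 lower. The cause of these shifts was not tested. Fas, with a mean of 19.7 counts, was removed by the filter of at least 10 counts in every sample and had no adjusted p in DESeq2.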

Other observations

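The genes whose pattern over the 6 samples lay nearest to each of the 3 genes that rose were Hmgn5 and Lpar4 for Tnfrsf10b, Aoah and Scrn1 for Pidd1, and Cd44 and Tm4sf1 for Perp. The root mean square distances of centred log2 CPM were 0.031 and 0.034, 0.049 and 0.057, and 0.053 and 0.056. They were chosen for this likeness, so their log2 fold changes, 0.61 and 0.62, 0.73 and 0.70, and 0.54 and 0.58, are a description with no test.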
